A study of Arabidopsis thaliana with 18 samples.

Results

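The atypical helix-loop-helix (HLH) genes described here are PRE1 to PRE6, IBH1, PAR1, PAR2 and HFR1. The rule that takes them names their gene identifiers and uses no measured value, though they were chosen with earlier results of these data known. They are 10 of the 26073 genes listed for each library of an RNA sequencing study of Arabidopsis thaliana organs. The study set wild-type Col-0 (WT) beside pifq, which the labels give as pif1pif3pif4pif5 -/-/-/- in the same Col-0 ecotype. Cotyledon, apical hook and hypocotyl were collected from seedlings of both genotypes aged 4 d, with 3 libraries for each of the 6 combinations of genotype and organ and 18 altogether. All groups shared continuous darkness, 22 °C and MS medium with 3% sucrose. The sample titles mark the 3 replicates of each group as Bio. The alleles of the quadruple mutant, and whether the replicates were separate cultures, are not given in the labels. The p-values hence reflect the spread among these libraries alone.

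PIF1, PIF3, PIF4 and PIF5 encode basic helix-loop-helix (bHLH) transcription factors that bind DNA and hold the seedling in its dark form, with a long hypocotyl, a closed hook and folded cotyledons. Atypical HLH proteins keep the dimerisation domain but lack the residues for binding DNA, so they act by pairing with other HLH proteins. IBH1 pairs with growth-promoting bHLH factors such as HBI1 and keeps them from DNA. The small PRE proteins pair with IBH1 and free those factors, and so promote cell elongation. PAR1 and PAR2 are shade-induced growth inhibitors that pair with PIF and PRE proteins. HFR1 pairs with PIF proteins and limits their activity in shade, and the COP1/SPA ubiquitin ligase marks HFR1 protein for degradation in the dark. PRE6, also called KIDARI, pairs with HFR1. PRE3, also called TMO7, is known from embryonic root formation.

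PIF proteins bind the G-box (CACGTG) and the PBE-box (CACATG, or CATGTG on the other strand), and the brassinosteroid-activated factor BZR1 binds the BRRE (core CGTGCG or CGTGTG). Windows before the annotated gene starts are shown for genes chosen by these motifs, on the gene's strand in RefSeq's TAIR10.1 assembly, with G-box and PBE-box matches in capitals. HFR1 and PRE2 are shown because they hold a G-box, PAR1 and PAR2 because their PBE-boxes cluster at nearly the same distance, and PRE6 because its PBE-box lies close to the gene.
HFR1, chr1:468863-468892, minus strand: gagcccacaaccCACGTGggattttggata
PAR1, chr2:17838329-17838418, minus strand: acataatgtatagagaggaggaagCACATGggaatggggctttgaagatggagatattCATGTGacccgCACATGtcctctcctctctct
PAR2, chr3:21761101-21761190, minus strand: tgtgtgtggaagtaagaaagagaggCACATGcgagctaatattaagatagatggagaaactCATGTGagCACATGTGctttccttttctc
PRE6, chr1:9351068-9351097, plus strand: aagttgatactacacCATGTGaatagctcg
PRE2, chr5:4922813-4922842, minus strand: gataaatttgtaaattCACGTGtcatgtat

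In the 1000 bases before the gene start, both strands read, PAR2 held 5 PBE-box matches and PAR1 held 4. Of all 24067 promoters of that length, 0.565% held at least 4 such matches and 0.133% held at least 5. The PAR1 and PAR2 clusters start at nearly the same distance from the gene, with PAR1 matches at 776, 742 and 731 bases and PAR2 matches at 775, 739, 731 and 729 bases. The last pair in PAR2 overlap each other, and a further match lies at 128 bases. Another annotated gene reaches into the PAR1 window. PAR1 also held a G-box at 937 bases, HFR1 one at 1000 bases and PRE2 one at 14 bases, against 15.5% of all promoters with a G-box within 1000 bases and 7.67% within 300. The PBE-box of PRE6 lay 77 bases before the gene and that of PRE4 63 bases before it. At least 1 PBE-box stood within 1000 bases of 8 of the 10 genes, against 38% of all promoters. The IBH1 window held none of the motifs searched, and the sole BRRE match was in PAR2, at 622 bases, against 21.6% of all promoters. A match is a description of these letters and not a measured binding site.

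**Figure D1:**
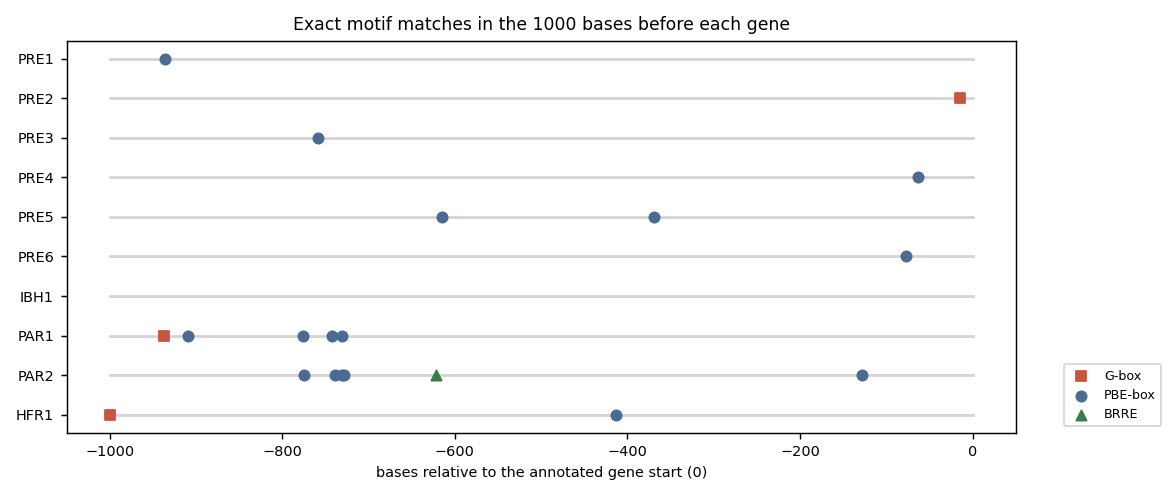
Exact matches of the G-box, PBE-box and BRRE in the 1000 bases before each gene, plotted by distance of the first base from the annotated gene start (0). PAR1 and PAR2 carry clusters of PBE-boxes at nearly the same distance, PRE2 has a G-box 14 bases before the gene and IBH1 has no match.

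The genes differ in size and position. The 6 PRE genes each have 2 exons and a coding sequence of 279 to 285 bases, which gives proteins of 92 to 94 residues. PAR1 and PAR2 are single-exon genes with 118 residues each, IBH1 is a single-exon gene with 156, and HFR1 has 4 exons and 292 residues. PRE1 (AT5G39860) lies at chr5:15957368-15958559, PRE2 (AT5G15160) at chr5:4921243-4922812, PRE3 (AT1G74500) at chr1:27997919-27998821, PRE4 (AT3G47710) at chr3:17590544-17591670, PRE5 (AT3G28857) at chr3:10855623-10856787 and PRE6 (AT1G26945) at chr1:9351160-9352833. IBH1 (AT2G43060) lies at chr2:17909007-17910210, PAR1 (AT2G42870) at chr2:17836416-17837618, PAR2 (AT3G58850) at chr3:21759350-21760390 and HFR1 (AT1G02340) at chr1:465616-467880. No other annotated gene overlaps any of them. The longest stretch of exact identity between exons of 2 of these genes was 26 bases, shared by PAR1 and PAR2. PRE2 and PRE6 share 22 bases, and PRE1 and PRE5 share 20.

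Levels are given in FPKM, fragments per kilobase of exon and library size, which makes levels of different genes comparable. Depth ran from 12955831 to 20701141 reads or read pairs per library, and a single read in a transcript 1 kb long amounts to 0.0483 to 0.0772 FPKM. Differences are given as log2(FPKM + 1), with the standard error (SE) of the fit, and a gene was called where the adjusted p from limma over all genes tested was under 0.05. A gene was tested where at least 3 libraries reached 1 FPKM, which 19349 genes did, among them 9 of the 10 members. PRE4 did not. In bulk organs, fewer cells of a type and less RNA per cell cannot be told apart.

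The PIF genes named in the genotype label were read beside the labels. PIF3 read 57.7, 52.7 and 52.9 FPKM in WT cotyledons and 3.304, 2.67 and 3.504 in pifq, with hook means of 87.7 ± 3.29 and 1.999 ± 0.191 FPKM (SD, n = 3) and hypocotyl means of 51.8 ± 10.3 and 3.91 ± 0.699. PIF5 was also lower in pifq in all 3 organs. PIF1 and PIF4 were not lower throughout. In pifq hypocotyls both were called higher, PIF1 by 1.01 (adjusted p = 0.000509) and PIF4 by 1.47 (adjusted p = 5.59e-06). PIF1 was called lower in hooks (-0.73; adjusted p = 0.0048), and the other differences of these genes were not called. Without the alleles, which of the PIF1, PIF3, PIF4 and PIF5 levels should fall in pifq is not known. Neither the falls nor the rises of these genes hence check the genotype labels on their own. The PIF3 libraries of WT and pifq did not overlap in any organ. Summed lateral organ markers (FIL, YAB3, YAB5 and KAN1) ran from 151 to 164 FPKM in WT cotyledons, 52.7 to 66.0 in WT hooks and 20.7 to 27.3 in WT hypocotyls, in the order of the organ labels. KAN1 alone did not follow that order, with WT means of 4.64, 8.59 and 6.14 FPKM in cotyledons, hooks and hypocotyls. HLS1, which is required for hook formation, did not single out the hook, with 34.6 to 36.6 FPKM in WT cotyledons and 14.2 to 24.0 in WT hooks. In pifq hooks the lateral organ markers summed to 109.7 to 121 FPKM, none of the 4 at 0, and the 6 stomatal lineage markers to 37.1 to 52.3 against 7.46 to 13.7 in WT hooks. The order of the lateral organ sums hence did not hold in pifq. There cotyledons, at 104.3 to 109.8 FPKM, overlapped with hooks, and hypocotyls ran from 24.8 to 30.4. KAN1 did not differ between pifq and WT hooks (adjusted p = 0.984). In pifq hypocotyls, the 6 meristem and boundary markers summed to 109.9 to 163 FPKM against 40.0 to 56.0 in WT. Most of this sum was KNAT1, with hypocotyl means of 126 FPKM in pifq and 48.0 in WT. STM (3.10 and 1.58 FPKM) and CUC3 (1.13 and 0.155) were also called higher there. CUC2 was not called (adjusted p = 0.533), and WUS and CLV3 were not tested. Chloroplast and mitochondrial genes took 2.08% to 4.11% of all FPKM in WT cotyledons and hooks and 0.1004% to 0.227% in pifq cotyledons and hooks. Library 2 of pifq hooks stood at -19.1 on the first principal component, away from the other two at -53.3 and -54.8. The part of these differences in the results below was not tested, except that results are given without a library where it decides them.

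**Figure D2:**
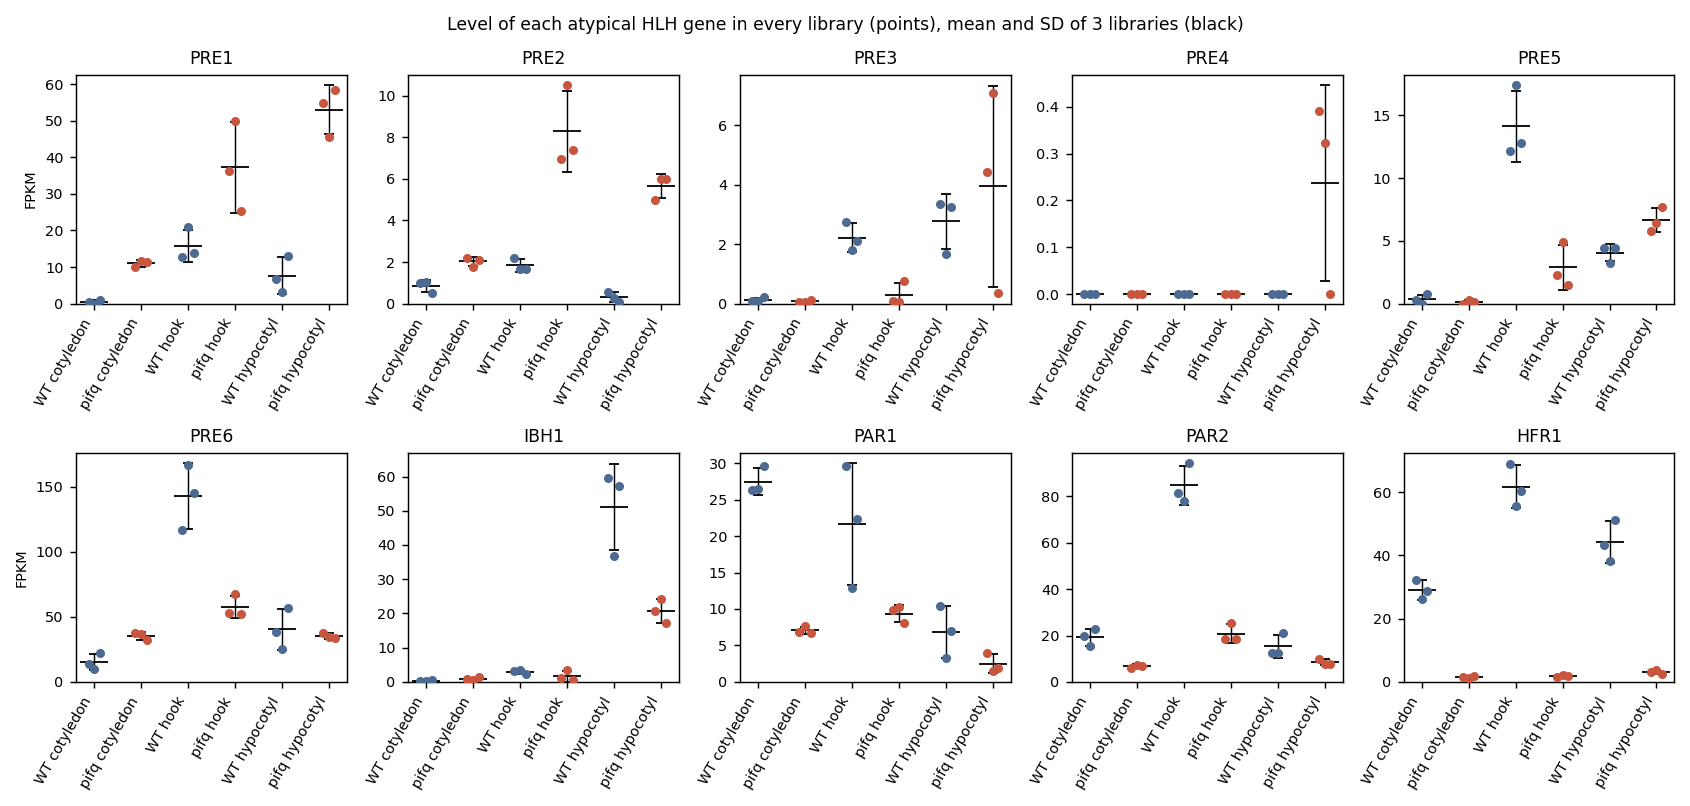
FPKM of each of the 10 genes in every library, by group (WT blue, pifq red), with the mean and SD of 3 libraries in black; each panel has its own scale. HFR1 is low in all 9 pifq libraries, PRE1 is higher in pifq in each organ, and PRE6 is lower in pifq hooks but higher in pifq cotyledons.

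PRE1 and PRE2 were the PRE genes that rose in pifq in all 3 organs. PRE1 read 0.361, 0 and 0.8696 FPKM in the WT cotyledon libraries, which rest on 4, 0 and 13 reads, and 9.96, 11.5 and 11.4 FPKM in pifq. In hooks the WT libraries read 12.7, 20.9 and 13.8 FPKM and the pifq libraries 36.2, 49.98 and 25.4, and in hypocotyls 6.74, 3.12 and 13.03 FPKM and 54.9, 45.6 and 58.5. In each organ all 3 pifq libraries lay above all 3 WT libraries. On the log2(FPKM + 1) scale PRE1 was higher by 3.13 ± 0.35 (SE) in cotyledons (adjusted p = 1.07e-06), by 1.17 ± 0.35 in hooks (adjusted p = 0.00826) and by 2.81 ± 0.35 in hypocotyls (adjusted p = 6.31e-06). Mean PRE1 in FPKM was 6.95 times the WT mean in pifq hypocotyls and 2.36 times in pifq hooks. The hook call was lost with a pseudocount of 0.1 (adjusted p = 0.0951), and the cotyledon difference, which starts from near 0, grew to 4.96 with it.

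PRE2 stayed low throughout, and its highest library was a pifq hook library. It read 0.9795, 1.03 and 0.509 FPKM in WT cotyledons and 2.22, 1.77 and 2.11 in pifq cotyledons. The hook libraries read 2.21, 1.69 and 1.65 FPKM in WT and 6.95, 10.5 and 7.41 in pifq, and the hypocotyl libraries 0.563, 0.275 and 0.0733 and 4.97, 5.99 and 6.01. The genotypes did not overlap in any organ, and pifq was the higher in each. The log2 differences were 0.73 ± 0.17 (SE; adjusted p = 0.00141), 1.69 ± 0.17 (adjusted p = 4.05e-07) and 2.37 ± 0.17 (adjusted p = 2.26e-08). With a pseudocount of 0.1 the cotyledon and hypocotyl differences became 1.23 and 4.03, so the size for this low gene rests on that choice.

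PRE6, the most abundant PRE gene in every group but pifq hypocotyls, moved in opposite directions in cotyledons and hooks. WT hooks held most of it, at 117, 167 and 146 FPKM in the 3 libraries, and pifq hooks read 52.9, 67.3 and 51.98. In cotyledons the order was turned, with 13.7, 10.02 and 22.3 FPKM in WT and 37.96, 36.5 and 32.2 in pifq. Neither comparison had overlapping libraries. PRE6 fell in pifq hooks, with a log2 difference of -1.30 ± 0.26 (SE; adjusted p = 0.000373), and rose in pifq cotyledons, with 1.23 ± 0.26 (adjusted p = 0.00058). Hypocotyls read 38.4, 25.6 and 56.9 FPKM in WT and 37.8, 34.3 and 33.9 in pifq, where the WT libraries spread around the pifq ones and the difference of -0.11 ± 0.26 was not called (adjusted p = 0.727). The pifq effect in hooks minus that in cotyledons was -2.53 ± 0.36 (adjusted p = 6.37e-05).

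PRE5 was highest in WT hooks. Its WT hook libraries read 12.2, 17.4 and 12.8 FPKM and its pifq hook libraries 2.29, 4.92 and 1.51, without overlap. The fall in pifq hooks was -2.03 ± 0.26 on the log2 scale (SE; adjusted p = 5.72e-06), from a mean of 14.1 ± 2.83 to 2.905 ± 1.78 FPKM (SD, n = 3). Hypocotyls read 4.45, 3.25 and 4.44 FPKM in WT and 5.81, 6.38 and 7.69 in pifq. These did not overlap either, with pifq the higher, but the difference of 0.60 ± 0.26 was not called (adjusted p = 0.0646). Fitted on the hypocotyl libraries alone it was called (adjusted p = 0.022). Cotyledons of both genotypes were near 0, with no library above 0.754 FPKM, and 2 libraries without a read, where 3 reads would have given at most 0.190 FPKM.

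PRE3 fell in pifq hooks from 2.76, 1.798 and 2.10 FPKM to 0.0731, 0.0598 and 0.745, a log2 difference of -1.35 ± 0.44 (SE; adjusted p = 0.0143) without overlap, which became -2.999 with a pseudocount of 0.1. The pifq hypocotyl libraries split, with 4.42, 7.08 and 0.356 FPKM in libraries 1 to 3 beside 3.34, 1.69 and 3.27 in WT. The difference over all 3 was 0.09 ± 0.44 (adjusted p = 0.883). Without pifq hypocotyl library 3 it was 0.85 (adjusted p = 0.00977), so that library decides the call. Of the 5 root markers, only the root cap marker SMB is given by library here, at 0.252, 0.366 and 0 FPKM. These levels rest on few reads and do not stand for the other root markers. All 5 together summed to 61.8 to 63.5 FPKM, without such a split. More abundant genes such as SCR (mean 24.6 FPKM in pifq hypocotyls) carry that sum, so it does not show how each marker ran. The organelle share of all FPKM was split as well, at 0.870%, 1.61% and 0.0970%. Their part in the PRE3 values was not tested. In cotyledons PRE3 did not exceed 0.211 FPKM in any library. PRE4 had no read in 16 of the 18 libraries, where 3 reads would have given 0.213 to 0.341 FPKM, and 5 and 4 reads in pifq hypocotyl libraries 1 and 2 (0.39 and 0.323 FPKM), the libraries in which PRE3 was high.

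**Figure D3:**
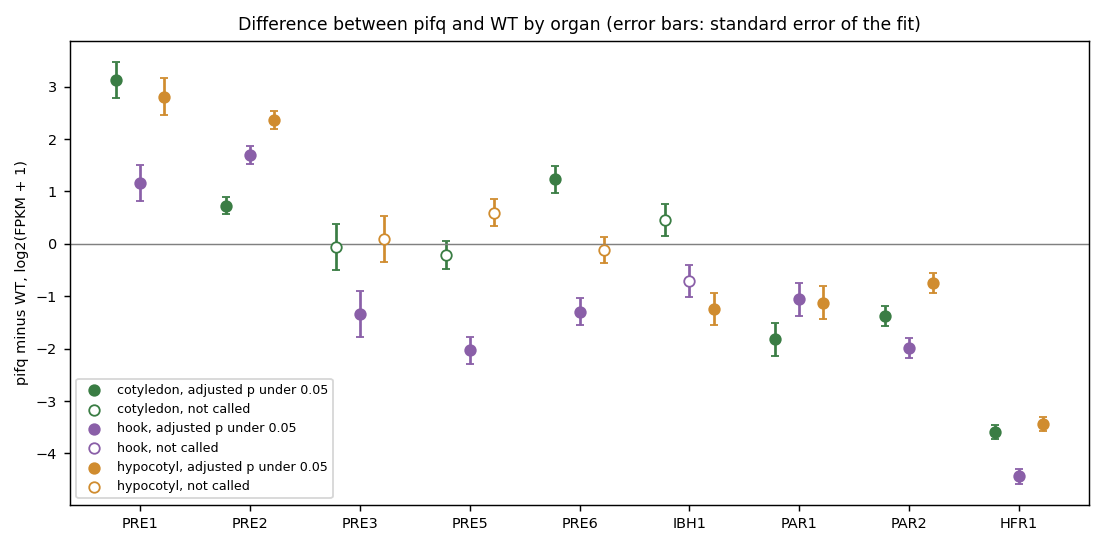
Difference between pifq and WT on the log2(FPKM + 1) scale for the 9 genes tested, in cotyledon, hook and hypocotyl, with the standard error of the fit; filled points passed an adjusted p under 0.05. HFR1, PAR1 and PAR2 lie below 0 in all 3 organs, PRE1 and PRE2 above 0 in all 3, and PRE6 changes side between cotyledon and hook.

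HFR1 fell in pifq in all 3 organs, and on the log2(FPKM + 1) scale its difference was the largest of the 9 genes tested in each. Its WT libraries read 32.3, 26.2 and 28.7 FPKM in cotyledons, 69.03, 55.6 and 60.4 in hooks and 43.2, 38.3 and 51.3 in hypocotyls. The pifq libraries read 1.47, 1.21 and 1.798 FPKM in cotyledons, 1.68, 2.24 and 1.74 in hooks and 3.27, 3.68 and 2.603 in hypocotyls. The highest of the 9 pifq libraries, a hypocotyl library, was far below the lowest of the 9 WT libraries, a cotyledon library. HFR1 fell by 3.59 on the log2 scale in cotyledons (adjusted p = 1.43e-11), by 4.44 in hooks (adjusted p = 1.82e-12) and by 3.43 in hypocotyls (adjusted p = 3.6e-11), each with an SE of 0.14. As ratios of mean FPKM, WT was 19.5, 32.7 and 13.9 times pifq in cotyledons, hooks and hypocotyls. By that measure the rank does not hold in every organ, since pifq was 26.7 times WT for PRE1 in cotyledons and 18.6 times for PRE2 in hypocotyls, both from WT levels below 1 FPKM. With a pseudocount of 0.1 or with limma-voom, the differences of PRE1 in cotyledons, 4.96 or 5.61, and of PRE2 in hypocotyls, 4.03 or 4.36, also exceeded those of HFR1. The fall was deeper in hooks than in cotyledons, the difference of effects being -0.85 ± 0.19 (adjusted p = 0.00258), and this was lost with limma-voom on recovered reads (adjusted p = 0.0783).

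PAR1 and PAR2 also fell in pifq in all 3 organs. PAR2 was highest in WT hooks, at 81.7, 78.2 and 94.4 FPKM against 18.3, 25.6 and 18.4 in pifq hooks. Cotyledons read 19.7, 15.4 and 22.8 FPKM in WT and 5.94, 7.46 and 6.85 in pifq, and hypocotyls 12.6, 12.3 and 20.9 and 10.1, 7.695 and 7.75. Within each organ the genotypes did not overlap. The log2 differences were -1.99 ± 0.19 (SE; adjusted p = 2.49e-07) in hooks, -1.38 ± 0.19 (adjusted p = 1.16e-05) in cotyledons and -0.75 ± 0.19 (adjusted p = 0.0037) in hypocotyls. The hypocotyl effect was smaller than the hook effect by 1.24 ± 0.27 (adjusted p = 0.0028).

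PAR1 was highest on average in WT cotyledons, where it overlapped with WT hooks. It read 26.4, 26.4 and 29.7 FPKM in WT cotyledons and 6.799, 7.61 and 6.74 in pifq, a log2 difference of -1.82 ± 0.32 (SE; adjusted p = 0.00012). Hooks read 29.6, 12.9 and 22.4 FPKM in WT and 9.84, 10.2 and 8.02 in pifq, without overlap, a difference of -1.06 ± 0.32 (adjusted p = 0.00877). Hypocotyls read 10.4, 3.24 and 6.92 FPKM and 3.96, 1.51 and 1.97, where 1 WT library lay below 1 pifq library, with a difference of -1.12 ± 0.32 (adjusted p = 0.00735). The hook call was lost without WT hook library 1 (adjusted p = 0.0526), and the hypocotyl call in a fit of the hypocotyl libraries alone (adjusted p = 0.056). No difference of the PAR1 effect between organs was called.

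IBH1 was highest in hypocotyls in both genotypes, and it fell in pifq hypocotyls. WT hypocotyls read 59.6, 36.7 and 57.1 FPKM and pifq hypocotyls 20.6, 24.2 and 17.3, without overlap, a log2 difference of -1.24 ± 0.30 (SE; adjusted p = 0.00267). Hooks read 3.07, 3.37 and 2.25 FPKM in WT and 1.04, 3.48 and 0.458 in pifq. Library 2 of pifq hooks, which stands apart on the first principal component, lay above all WT hook libraries while the other two lay below them. The hook difference was -0.71 ± 0.30 and not called (adjusted p = 0.0536), and without that library it was -1.17 (adjusted p = 0.000446). It was also called with a pseudocount of 0.1, with median-ratio scaling and with organelle-encoded genes removed (adjusted p = 0.0454, 0.0262 and 0.0427). Cotyledons held little IBH1, with no library above 1.30 FPKM, and a difference of 0.46 ± 0.30 that was not called (adjusted p = 0.208). It was called in a fit of the cotyledon libraries alone (adjusted p = 0.0307).

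Of the 9 genes tested, 3 were called higher and 3 lower in pifq cotyledons, 2 higher and 6 lower in pifq hooks, and 2 higher and 4 lower in pifq hypocotyls. The background is high: 59.8% of all genes tested were called in cotyledons, 60.7% in hooks and 52.4% in hypocotyls. Against such a background, the counts of 6, 8 and 6 called are not read as particular to these genes. Genes called lower made up 35.4%, 24% and 16.5% of all genes tested, and genes called higher 24.4%, 36.6% and 35.9%. The libraries of the genotypes did not overlap for 7, 8 and 6 of the 9, against 67.6%, 66.3% and 56% of all genes tested. The median difference of the 9 was -0.06, -1.30 and -0.11, and that of all genes tested -0.10, 0.12 and 0.17. Median-ratio scaling moved the medians of all genes to 0.04, -0.03 and -0.03. It changed the share of calls that were higher from 40.8% to 54.2% in cotyledons, from 60.4% to 47.8% in hooks and from 68.5% to 46.2% in hypocotyls, and kept the direction of every genotype difference of these 9 genes but that of PRE3 in hypocotyls.

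Whether the pifq effect differed between organs was tested as the difference of effects. The hook effect minus the cotyledon effect was called above 0 for 1 of the 9 genes and below 0 for 5 (41.4% of all genes tested were called, 30.5% above and 10.9% below 0). The hypocotyl effect minus the cotyledon effect was above 0 for 1 and below 0 for 2 (45.7% called, 34.7% above and 11% below). The hypocotyl effect minus the hook effect was above 0 for 6 and below 0 for none (29.1% called, 16.6% above and 12.5% below). In that order, the medians of all genes tested were 0.25, 0.28 and 0.02, and -0.07, -0.10 and -0.03 with median-ratio scaling. The shares given here were taken without that scaling. PRE1 rose less in hooks than in cotyledons (-1.96 ± 0.49, SE; adjusted p = 0.0046), and less in hooks than in hypocotyls (1.65 ± 0.49; adjusted p = 0.0194). The latter was lost with a pseudocount of 0.1 (adjusted p = 0.141) and without WT hook library 2 or pifq hook library 3 (adjusted p = 0.0523 and 0.0524). PRE5 fell in hooks and did not in hypocotyls, a difference of 2.63 ± 0.37 (adjusted p = 8.92e-05). For PRE2 the effect was larger in hypocotyls than in cotyledons by 1.63 ± 0.24 (adjusted p = 5.86e-05). For IBH1 the effect in hypocotyls minus that in cotyledons was -1.70 ± 0.43 (adjusted p = 0.0043). Without WT hook library 2, only 3 genes differed between hypocotyl and hook, and without WT cotyledon library 2, 5 differed between hypocotyl and cotyledon.

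The levels also differed between organs within each genotype. In WT, 8 of the 9 genes were higher in hook than in cotyledon and none was lower (57.8% of all genes tested were called, 33.9% higher and 23.9% lower), the exception being PAR1 at -0.40 ± 0.32 (SE; adjusted p = 0.297). The difference was 3.59 ± 0.35 for PRE1 (adjusted p = 3.25e-07), 3.52 ± 0.26 for PRE5 (adjusted p = 1.95e-08) and 3.20 ± 0.26 for PRE6 (adjusted p = 4.56e-08). From hook to hypocotyl, 7 of 9 were lower and 1, IBH1, was higher (64.8% called, 41.9% lower and 22.8% higher). The median of all genes tested was -0.22 there, and -0.04 with median-ratio scaling, without which these shares were taken. IBH1 stood 3.72 ± 0.30 above the hook (adjusted p = 4.72e-08), the PAR2 difference was -2.43 ± 0.19 (adjusted p = 3.08e-08), and PRE3 did not differ beyond the spread (adjusted p = 0.698). For PRE1 the libraries overlap, and its difference of -1.10 (adjusted p = 0.0108) lost the call with a pseudocount of 0.1 (adjusted p = 0.085). It was also lost without WT hook library 2 or WT hypocotyl library 2 (adjusted p = 0.0546 and 0.0726). Against cotyledon, WT hypocotyl was higher in 6 genes and lower in PRE2 and PAR1 (74% called, 36.3% higher and 37.7% lower). The PRE2 libraries overlap there, and its difference of -0.50 ± 0.17 was lost without WT cotyledon library 1, WT cotyledon library 2 or WT hypocotyl library 3 (adjusted p = 0.0525, 0.0598 and 0.0787).

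In pifq, 5 of the 9 genes were higher in hook than in cotyledon and none was lower (64.7% of all genes tested were called, 53.4% higher and 11.4% lower). The median of all genes tested was 0.38 there, and -0.04 with median-ratio scaling, without which these shares were taken. For PRE6 this organ difference was 3.20 in WT and 0.67 in pifq (adjusted p = 0.0305), and the latter was lost under median-ratio scaling (adjusted p = 0.662) and without pifq hook library 2 (adjusted p = 0.115) or pifq cotyledon library 2 or 3 (adjusted p = 0.0563 and 0.0897). From hook to hypocotyl 4 were higher and 4 lower in pifq (64.6% called, 27.1% higher and 37.6% lower), and 6 were higher and 1, PAR1, lower than in cotyledon (71.9% called, 49.5% higher and 22.4% lower). The medians of all genes were -0.12 and 0.32 for these differences, and 0.02 and 0.03 with median-ratio scaling. Among those lower than in hook, PRE2 (adjusted p = 0.0244) and PRE6 (adjusted p = 0.0291) each lost the call in 5 of 15 alternatives. Both lost it with median-ratio scaling (adjusted p = 0.108 and 0.093) and without pifq hook library 2 (adjusted p = 0.138 and 0.103). PRE3 and PRE5, higher than in hook, lost it in 1 alternative each. HFR1 in pifq was higher in hypocotyls than in hooks by 0.53 ± 0.14 (adjusted p = 0.00296), while in WT the difference was -0.47 ± 0.14 (adjusted p = 0.00657), a call lost with median-ratio scaling (adjusted p = 0.104). The order of group means ran, for HFR1, from WT hook over WT hypocotyl and WT cotyledon to pifq hypocotyl without overlap between neighbours. Only pifq hook and pifq cotyledon, at the end of that order, overlapped. For PRE1 the order was pifq hypocotyl, pifq hook, WT hook, pifq cotyledon, WT hypocotyl and WT cotyledon, with overlap between the 2 highest groups and between pifq cotyledon and WT hypocotyl. For PRE6, WT hook came first and WT cotyledon last, each without overlap, and the 4 groups between them, at means of 35.3 to 57.4 FPKM, overlapped each with the next.

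The make-up of the PRE transcripts changed with genotype. Summed over PRE1 to PRE6, WT libraries reached 11.1 to 24.6 FPKM in cotyledons, 146 to 209 in hooks and 33.9 to 77.7 in hypocotyls, and pifq libraries 45.9 to 50.2, 87.1 to 133 and 99.7 to 108. The sum was thus higher in pifq cotyledons and hypocotyls and lower in pifq hooks, with no overlap in any organ. PRE6 made up 89.0% to 90.5% of it in WT cotyledons, 79.6% to 82.8% in WT hooks and 71.8% to 75.4% in WT hypocotyls. In pifq, PRE6 made up 70.0% to 75.6%, 50.7% to 59.7% and 31.8% to 34.9%. PRE1 was the larger part in pifq hypocotyls, with 45.8% to 54.9%, against 9.20% to 16.8% in WT hypocotyls.

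The inhibitor genes IBH1, PAR1, PAR2 and HFR1 summed to 68.2 to 81.7 FPKM in WT cotyledons, 150 to 183 in WT hooks and 90.5 to 136 in WT hypocotyls. In pifq they summed to 15.0 to 16.9, 28.6 to 41.6 and 29.7 to 37.9 FPKM, below every WT library of the same organ. HFR1 made up 33.7% to 42.3% of this sum across the 6 WT hook and hypocotyl libraries and 5.38% to 9.91% in those of pifq. IBH1 made up 40.6% to 47.4% in WT hypocotyls and 54.4% to 65.3% in pifq hypocotyls, but no more than 8.36% in any cotyledon or hook library. The PRE sum divided by the inhibitor sum ran from 0.163 to 0.301 in WT cotyledons, 0.799 to 1.39 in WT hooks and 0.375 to 0.571 in WT hypocotyls. In pifq it ran from 2.75 to 3.36, 3.04 to 3.19 and 2.69 to 3.59. The ratio thus differed between the organs of WT without overlap, while the organs of pifq overlapped. The inhibitor sum holds these genes alone and leaves out IBL1 and AIF1 to AIF4, atypical HLH inhibitor genes given below. AIF3 alone averaged 23.5, 49.1 and 42.7 FPKM in pifq cotyledons, hooks and hypocotyls, above the inhibitor sum of every pifq library of the same organ. The ratio hence does not set the PRE genes against all such inhibitors. These are transcript sums, given as a description without a test, and say nothing of protein.

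**Figure D4:**
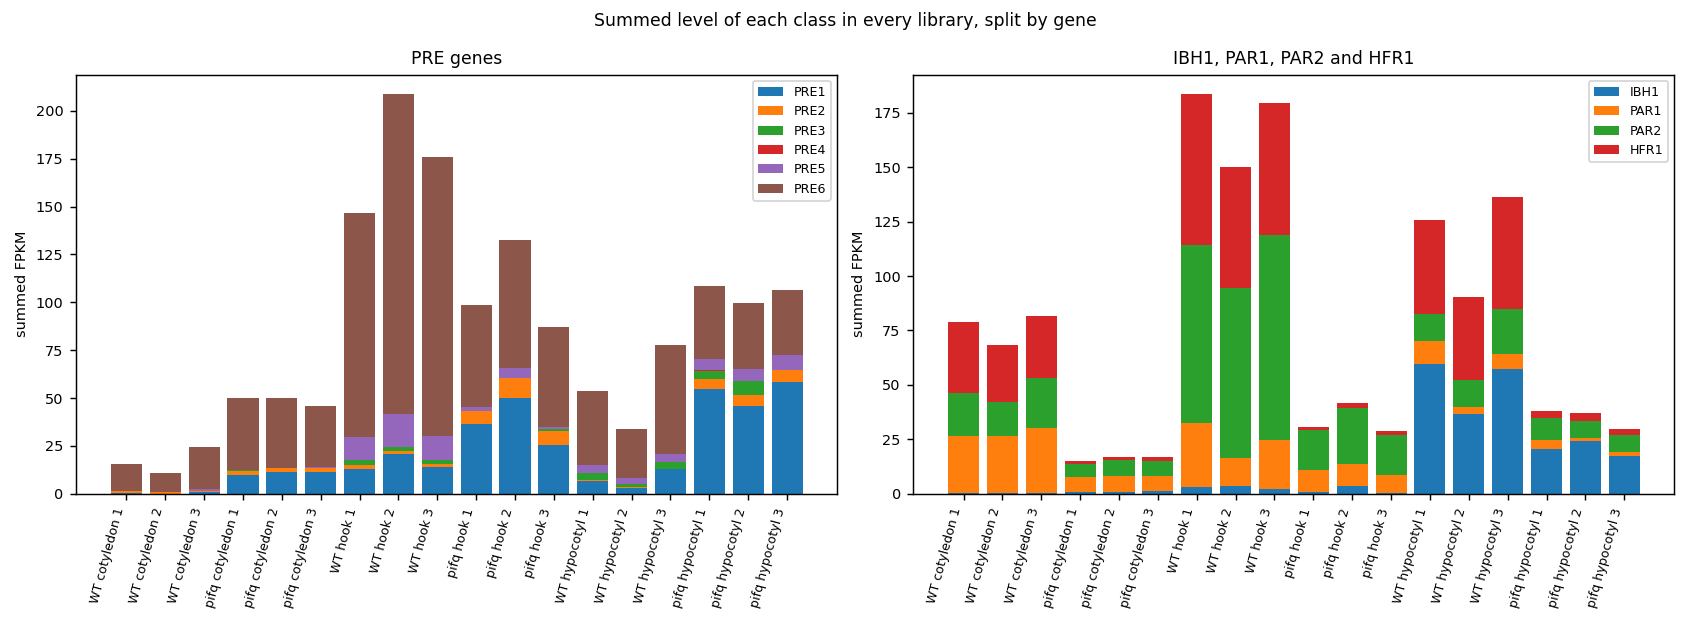
Summed FPKM of the 6 PRE genes (left) and of IBH1, PAR1, PAR2 and HFR1 (right) in each of the 18 libraries, split by gene. PRE6 dominates the PRE sum in WT libraries and PRE1 takes the larger part in pifq hypocotyls, while the inhibitor sum is below WT in every pifq library of the same organ.

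Across the 18 libraries, which share organ and genotype structure, some members ran in parallel. Pearson's r of log2(FPKM + 1), given as a description, was 0.75 for PRE1 with PRE2 and for PRE5 with PRE6, 0.74 for PRE3 with IBH1, 0.67 for HFR1 with PAR2, 0.65 for PAR1 with PAR2 and -0.73 for HFR1 with PRE2. Among all 13099 tested genes with a mean of at least 5 FPKM, the one most like HFR1 was PIF3 (r = 0.984, n = 18). PIF3 is itself mutated in pifq and, like HFR1, was low there in every organ, so this r carries the genotype difference. The next most like HFR1 was AT3G05945 (r = 0.979), with means of 40.4, 130 and 91.3 FPKM in WT cotyledons, hooks and hypocotyls and 0.778, 2.28 and 6.69 in pifq. PRE6 was most like AIF4, another atypical HLH inhibitor gene (r = 0.945), and the alpha-tubulin gene TUA2 (r = 0.935). PRE1 was most like ATP5, a mitochondrial ATP synthase subunit gene (r = 0.976), and AT1G80280 (r = 0.974). PRE5 was most like ACP1, an acyl carrier protein gene (r = 0.990), and AT5G48900 (r = 0.989). IBH1 ran with AT3G25930 (r = 0.996) and PGDH, a serine biosynthesis gene (r = 0.993), which averaged 118 FPKM in WT hypocotyls and 55.8 in pifq hypocotyls. PRE2 ran with AT2G38970 (r = 0.963) and the calcium-dependent protein kinase gene CPK13 (r = 0.957), PRE3 with AT5G46890 (r = 0.904) and AT1G30760 (r = 0.896). PAR1 ran with AT2G16930 (r = 0.955) and AT4G06880 (r = 0.953), and PAR2 with AT4G35070 (r = 0.961) and AT5G50335 (r = 0.957).

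Other atypical HLH inhibitor genes, IBL1 and AIF1 to AIF4, which encode relatives of IBH1, were all lower in pifq hooks (5 of 5, against 24% of all genes tested). IBL1 fell from 45.3 ± 3.34 to 14.4 ± 4.83 FPKM in hooks (SD, n = 3), a log2 difference of -1.64 ± 0.31 (SE; adjusted p = 0.000236), and AIF1 from 104 ± 16.1 to 33.7 ± 3.66 (-1.60; adjusted p = 1.55e-07). In cotyledons 2 of 5 rose and 1 fell, beside 24.4% and 35.4% of all genes tested. IBL1 rose by 1.54 (adjusted p = 0.000392) and AIF4 by 0.47 (adjusted p = 0.00168), and AIF3 fell from 96.5 ± 8.22 to 23.5 ± 2.04 FPKM (-1.99; adjusted p = 1.02e-09). In hypocotyls AIF2 alone was called, at -0.79 (adjusted p = 0.000449), where 35.9% of all genes tested were higher and 16.5% lower. IBL1 and AIF4, like PRE6, thus rose in pifq cotyledons and fell in pifq hooks. This was not particular to atypical HLH genes, since BEE1, CIL2, RGL1, EXPA1 and EXPA8, of the lists below, were called in the same directions. The cotyledon and hook differences were 1.06 and -1.32 for BEE1, 0.43 and -0.58 for CIL2, and 0.63 and -0.41 for RGL1. They were 2.28 and -0.48 for EXPA1 and 1.93 and -2.07 for EXPA8.

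DNA-binding bHLH genes whose products IBH1 and the PRE proteins control, or their close relatives, numbered 8 among the genes tested. Of these, 5 were higher and 2 lower in pifq cotyledons, 1 higher and 3 lower in pifq hooks, and 4 higher and none lower in pifq hypocotyls. Of all genes tested, 24.4% were higher and 35.4% lower in pifq cotyledons, 36.6% and 24% in hooks, and 35.9% and 16.5% in hypocotyls. HBI1, the growth-promoting factor held by IBH1, rose from 7.17 ± 0.632 to 30.5 ± 1.29 FPKM in cotyledons (1.95; adjusted p = 1.87e-06) and from 12.3 ± 4.06 to 26.3 ± 10.3 in hypocotyls (1.01; adjusted p = 0.00144). The HBI1 libraries of the genotypes overlap in hypocotyls, and the adjusted p there reached 0.0402 among the alternatives. Its hook means were 28.8 ± 3.48 and 26.2 ± 1.69 FPKM, not called (adjusted p = 0.645). The brassinosteroid-responsive BEE2 rose by 2.15 in cotyledons (adjusted p = 4.33e-06) and 0.94 in hypocotyls (adjusted p = 0.00791). In hypocotyls its libraries overlap, and the call was lost in a fit of the hypocotyl libraries alone (adjusted p = 0.0906) and without pifq hook library 2 and pifq hypocotyl library 3 together (adjusted p = 0.0556). BEE1 fell in hooks by 1.32 (adjusted p = 3.67e-05) and CIL2 by 0.58 (adjusted p = 0.000328), while CIB5 rose there by 0.51 (adjusted p = 0.00461). In cotyledons CIB4 fell by 0.80 (adjusted p = 4.16e-05) and CIL1 by 0.52 (adjusted p = 0.000299). CIB1 was not analysed here.

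Among the 7 PIF family genes, which include the partners of HFR1 and PAR1, PIF7 rose in every organ, from means of 0.288 ± 0.02997, 0.897 ± 0.0546 and 0.267 ± 0.186 FPKM in WT cotyledons, hooks and hypocotyls to 8.36 ± 0.343, 12.7 ± 1.12 and 6.36 ± 1.71 in pifq. Its log2 differences were 2.86, 2.85 and 2.52 (adjusted p = 2.1e-10, 1.93e-10 and 1.55e-09). PIF8 rose in cotyledons (1.91; adjusted p = 2.83e-07) and hypocotyls (1.71; adjusted p = 1.87e-06). PIF5 fell by 1.70, 1.80 and 0.74 in the same order of organs. In all, 2 rose and 3 fell in cotyledons, 1 rose and 4 fell in hooks, and 4 rose and 2 fell in hypocotyls, beside 24.4% higher and 35.4% lower, 36.6% and 24%, and 35.9% and 16.5% of all genes tested.

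Of 9 genes for regulators that act on PRE transcription (the brassinosteroid factors BZR1 and BES1, the auxin response factors ARF6 and ARF8, and the DELLA repressors RGA, GAI and RGL1 to RGL3), 3 rose and 3 fell in cotyledons, 1 rose and 4 fell in hooks, and 5 rose in hypocotyls. Of all genes tested, 24.4% rose and 35.4% fell in cotyledons, 36.6% rose and 24% fell in hooks, and 35.9% rose in hypocotyls. BES1 was called higher in all 3 organs, in hooks not with median-ratio scaling (adjusted p = 0.0699). It rose from 28.9 ± 4.78 to 62.8 ± 5.32 FPKM in cotyledons (1.10; adjusted p = 3.61e-06). ARF6 fell from 122 ± 11.5 to 54.5 ± 9.18 FPKM in hooks (-1.15; adjusted p = 0.000194) and by 1.47 in cotyledons (adjusted p = 1.77e-05). RGL3 fell in cotyledons (-1.37; adjusted p = 1.01e-05) and rose in hypocotyls (1.54; adjusted p = 5.6e-06), and GAI rose in cotyledons (0.92; adjusted p = 5.24e-05). RGL1 fell in hooks (-0.41; adjusted p = 0.012), a call lost without pifq hook library 3 (adjusted p = 0.0586), and ARF8 rose in hypocotyls (0.89; adjusted p = 4.98e-05).

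Of the 5 genes of the ligase that degrades HFR1 protein, SPA3 rose in all 3 organs, by 0.91 in cotyledons (adjusted p = 4.94e-05), 1.21 in hooks (adjusted p = 2.93e-06) and 1.38 in hypocotyls (adjusted p = 1.26e-06). COP1 rose from 9.90 ± 0.947 to 20.6 ± 4.35 FPKM in hypocotyls (0.97; adjusted p = 1.69e-05) and by 0.54 in cotyledons (adjusted p = 0.00213). In hooks SPA1 fell by 0.40 (adjusted p = 0.0194) and SPA4 by 0.34 (adjusted p = 0.043), and in cotyledons SPA2 fell by 0.46 (adjusted p = 0.000572). The counts were 2 higher and 1 lower in cotyledons, 1 higher and 3 lower in hooks, and 4 higher in hypocotyls, where 24.4% and 35.4%, 36.6% and 24%, and 35.9% of all genes tested were called so. The hook calls are weak: SPA4 lost its call in 7 of 15 alternatives (adjusted p up to 0.16), among them each fit without WT hook library 1 or 3 or pifq hook library 2 or 3. SPA1 lost it in 4 of 15 (adjusted p up to 0.0872), among them each fit without WT hook library 1 or pifq hook library 1 or 2.

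Growth and shade target genes, which include expansins, SAUR, Aux/IAA and HD-ZIP II genes, were called higher in 8 of 12 cases in pifq cotyledons and 8 of 12 in pifq hypocotyls, with 1 lower in each. Of all genes tested, 24.4% and 35.9% were higher and 35.4% and 16.5% lower in these organs. In hooks 3 were higher and 5 lower, beside 36.6% and 24% of all genes tested. EXPA5, an expansin that loosens cell walls, rose from 18.4 ± 2.65 to 320.0 ± 31.8 FPKM in hypocotyls (4.05 ± 0.24, SE; adjusted p = 2.25e-09), by 2.23 in hooks (adjusted p = 7.65e-07) and by 3.19 in cotyledons (adjusted p = 1.31e-08). EXPA1 rose from 34.4 ± 13.6 to 164 ± 19.5 FPKM in cotyledons (2.28; adjusted p = 8.07e-08) and EXPA4 fell there (-1.32; adjusted p = 1.65e-06). EXPA8 fell in hooks (-2.07; adjusted p = 0.000276). The auxin-induced SAUR15 fell in hooks (-1.32; adjusted p = 0.00156) and rose in hypocotyls (1.72; adjusted p = 0.00023), while SAUR68 was called higher in hooks (0.79; adjusted p = 0.0457), a call lost in 11 of 15 alternatives, each WT hook library and pifq hook library 1 or 2 left out among them (adjusted p up to 0.196). YUC8, an auxin biosynthesis gene, fell in hypocotyls (-0.84; adjusted p = 0.000372). The marker sums that differ between WT and pifq hooks and hypocotyls, given above, stand beside these list counts too, and their part was not tested.

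**Figure D5:**
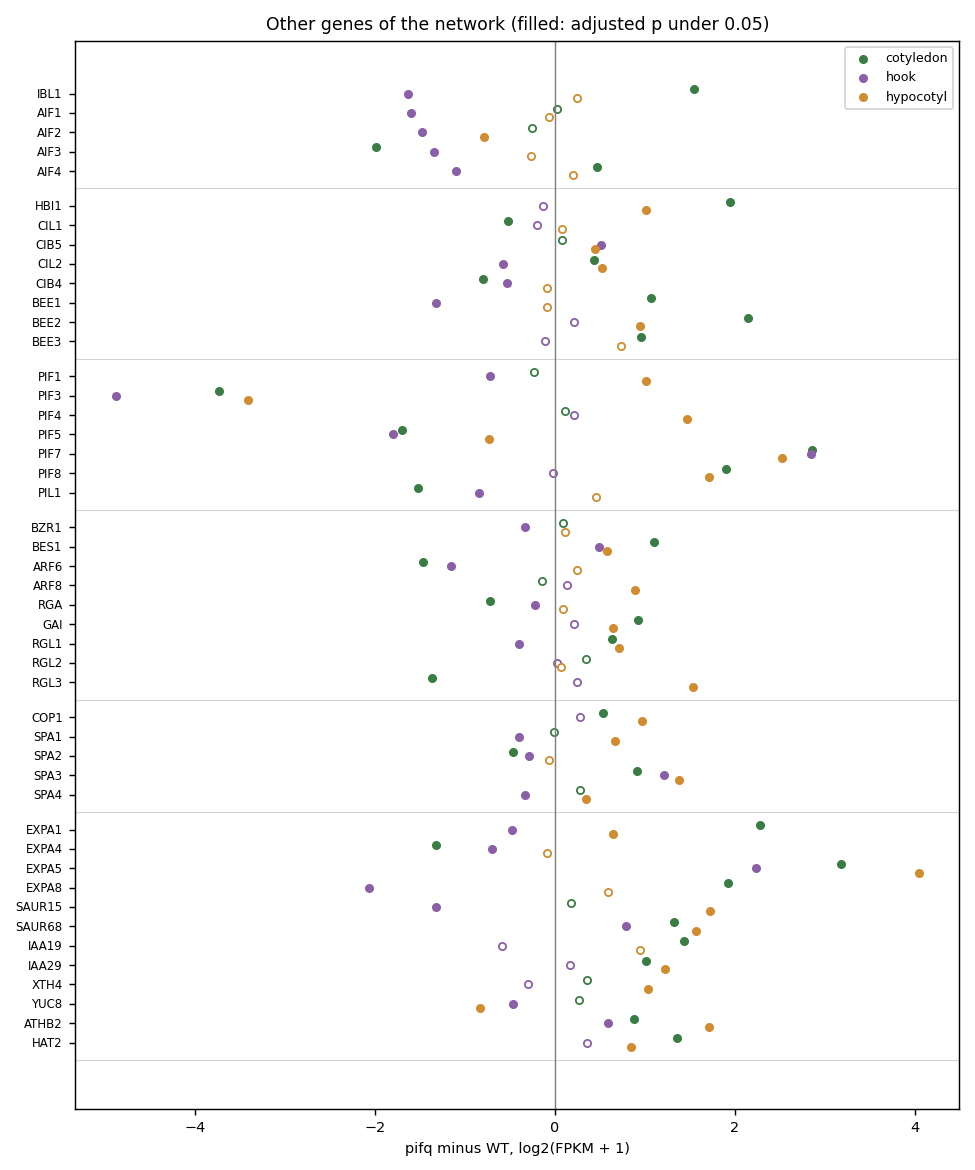
Difference between pifq and WT on the log2(FPKM + 1) scale for the other genes of the network, in blocks from top to bottom: HLH inhibitors, bHLH partners, PIF family, regulators of PRE genes, COP1/SPA genes and growth targets. Filled points passed an adjusted p under 0.05; the 5 HLH inhibitors all lie below 0 in hooks, and PIF7 lies above 0 in all 3 organs.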

How the data were processed

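The deposited values are FPKM, 1 value per gene and library, read as such from the values because the headers give no unit. The authors used HISAT2, DESeq2 and TAIR10, per the submitters' processing notes; roles, versions, annotation and counting are not given in the sources used here. Multiplied by merged exon length in TAIR10.1, 99.37% to 99.50% of values below 100 reads were whole within 0.05 reads, which gave each library's depth. The 10 genes and the gene lists were chosen with earlier results of these data known.

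limma 3.58.1 in R 4.3.3 was fitted with a trend to log2(FPKM + 1), a scale that understates changes of low genes, in 1 fit of 6 group means over all 18 libraries. The test covered genes that reached 1 FPKM in 3 or more libraries. P-values were adjusted by Benjamini-Hochberg over all 19349 genes tested. The fit was also run on simulated counts, with changes set only in pifq cotyledons and only in genes with many reads. That run does not cover low genes such as PRE3 or the differences of effects. Besides the 10 genes, up to 2 called rises and 2 called falls of each list and organ are named. So are PIF1, PIF3, PIF4 and PIF5, as the genes of the genotype label, and the 2 likest genes by Pearson's r. Intervals from depth cover counting error only. The names PRE2, PRE4 and PIF8 are not among the RefSeq names of their loci, which are BNQ2, BNQ3 and UNE10. Alternatives were a pseudocount of 0.1, no filter, a filter of 1 FPKM in 9 libraries, median-ratio scaling, organelle-encoded genes removed, limma-voom on recovered reads, the compared groups alone, a replicate block, and each library left out. Leaving out pifq hook library 2 with pifq hypocotyl library 3 was chosen after seeing the data.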

Additional observations from a re-analysis of the deposited data

Results flagged for a closer look

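For the following genes the pifq effect differed between organs, by the test of the difference of effects (limma, adjusted p under 0.05). Values are log2(FPKM + 1) differences of the effects. Between hook and cotyledon the difference was -1.963 for PRE1, 0.9605 for PRE2, -1.819 for PRE5, -2.526 for PRE6, -1.166 for IBH1 and -0.8468 for HFR1. Between hypocotyl and cotyledon it was 1.634 for PRE2, -1.344 for PRE6 and -1.702 for IBH1. Between hypocotyl and hook it was 1.646 for PRE1, 0.6734 for PRE2, 2.632 for PRE5, 1.182 for PRE6, 1.243 for PAR2 and 1.007 for HFR1.

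PRE6 had the largest difference between hook and cotyledon on this scale, but with a pseudocount of 0.1 and with limma-voom that of PRE1 was larger (-3.748 and -4.375). PRE6 was the one gene of the 9 called in opposite directions in 2 organs. The weakest were PRE2 between hypocotyl and hook and IBH1 between hook and cotyledon, which were each lost in 11 of 21 alternatives. PRE2 between hook and cotyledon was lost with a pseudocount of 0.1 (adjusted p = 0.2) and with limma-voom (adjusted p = 0.229), and PRE5 there with the same alternatives (adjusted p = 0.124 and 0.432). PRE6 between hypocotyl and hook was lost without WT hook library 2 (adjusted p = 0.056), WT hypocotyl library 2 (adjusted p = 0.0531) or pifq hook library 1 (adjusted p = 0.0502).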

How the results depend on the processing

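For the 9 genes tested, 86 results were recomputed, giving 1373 values under alternatives. Of these 1296 kept their direction and their side of the threshold, 60 kept the direction and lost the call, 9 gained a call and 8 changed sign. The sign changes were all of differences that were not called: PRE3 in hypocotyls was -0.1605 with a pseudocount of 0.1, -0.09049 with median-ratio scaling and -0.3619 with limma-voom, and ran from -0.4392 to 0.8481 with single libraries left out. With single libraries left out, PRE5 in cotyledons ran from -0.4036 to 0.001802 (without WT cotyledon library 3) and PRE6 in hypocotyls from -0.3964 to 0.1652 (without WT hypocotyl library 3). So did PIF4, outside these 9 genes, in cotyledons, from -0.05931 (without pifq cotyledon library 1) to 0.2272; the cause was not tested. The counts of called genes between genotypes stayed at 6 in cotyledons, 7 to 9 in hooks and 6 to 7 in hypocotyls with 1 library left out. Without pifq hook library 2 and pifq hypocotyl library 3, a choice made after seeing the data, they were 6, 9 and 7. The count of differences between hook and cotyledon effects fell from 6 to 2 with limma-voom and was 5 to 7 with 1 library left out. That between hypocotyl and cotyledon was 3 to 5, and that between hypocotyl and hook 3 to 6. With the replicate number as a block, the difference of IBH1 between hook and cotyledon effects lost its call (adjusted p = 0.0502), as did SAUR68 in hooks (adjusted p = 0.0538), and no other call among the results recomputed was changed. Same-numbered libraries of the genotypes correlated at -0.00979 to 0.247 in their deviations from the group means, so the numbers are not taken to pair them. With 3 libraries a group, levels below about 1 FPKM rest on few reads.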
